A study of Mus musculus with 18 samples.

Results

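The striatum and the hippocampus of adult WT mice were compared by mRNA sequencing of whole dissected tissue, with 3 striatum and 3 hippocampus libraries chosen by their sample names from the 18 libraries of the study. The mice were WT littermates of *Pcm1*-/- animals on the C57BL/6J background, they received no treatment that the sample descriptions state, and their tissue was frozen on the day of dissection. The other 12 libraries come from the frontal cortex of both genotypes and from the striatum and hippocampus of *Pcm1*-/- mice, which carry a gene-trap insertion. By the names of the libraries the 3 striatum and 3 hippocampus libraries come from the same 3 mice.

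The striatum is the input stage of the basal ganglia and is built mostly of GABAergic spiny projection neurons. Neurons of the direct pathway carry the dopamine D1 receptor with substance P and dynorphin, and those of the indirect pathway carry the dopamine D2 receptor and an adenosine receptor with enkephalin. The hippocampus is cortex of an ancient type, whose granule cells of the dentate gyrus and pyramidal cells of fields CA1 to CA3 release glutamate and serve memory. Since both samples are mixtures of cells, a larger number of cells of one type and more RNA per cell cannot be told apart in these data.

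The 6 libraries held 25721784 to 27804843 reads on genes and detected 20623 to 21063 genes each. Values are given as CPM, read counts scaled to a common library size with TMM factors, for replicates 1, 2 and 3 in that order, and a positive log2 fold change means a higher level in the striatum. A value with ± is a log2 fold change with its standard error (SE) from 3 libraries per region, and medians of lists are medians of log2 fold changes. Of 17545 genes tested with edgeR's quasi-likelihood test, 4374 (24.9%) passed an adjusted p of 0.05, 1987 (11.3%) of them higher in the striatum and 2387 (13.6%) higher in the hippocampus. Genes that were called and differed by at least 2-fold are termed regional here, and there were 2004 of them (11.4%). In the striatum 876 genes (4.99%) were regional and in the hippocampus 1128 (6.43%), the shares against which the counts of gene groups are set. The CPM values of the regions did not overlap for 7255 genes (41.4%). The median absolute log2 fold change was 0.28 over all genes tested, and 62 called genes in each direction differed by 5 or more on this scale. Log2 CPM values correlated across genes at 0.983 to 0.991 among striatum libraries, at 0.983 to 0.986 among hippocampus libraries and at 0.943 to 0.955 between regions.

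**Figure D1:**
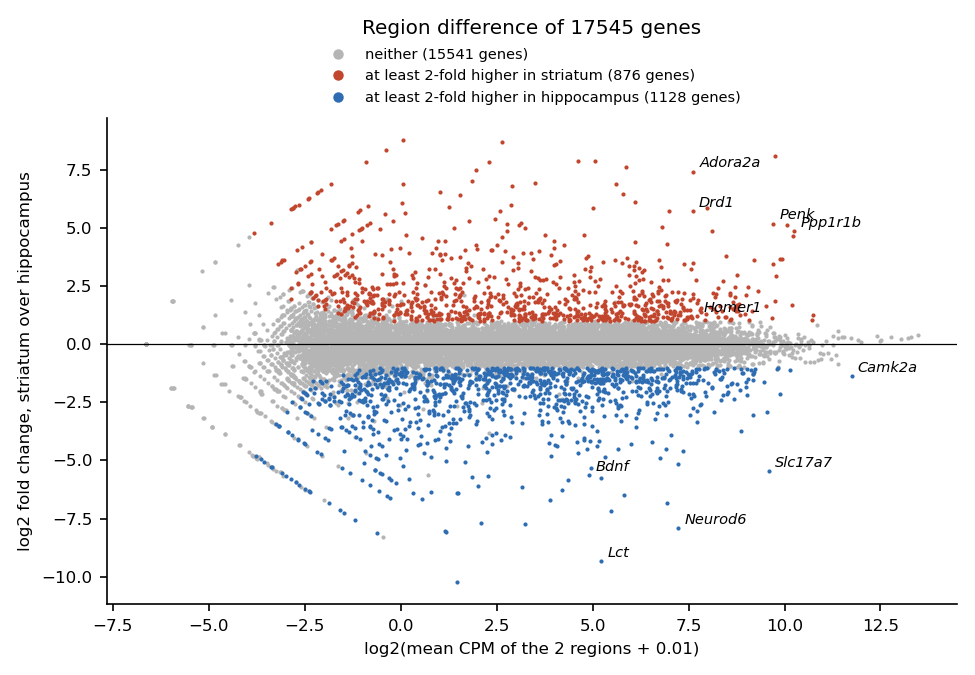
Region difference of every gene tested in WT libraries. The x axis gives the mean CPM of both regions on a log2 scale and the y axis the log2 fold change of striatum over hippocampus. Each point is a gene, red for the 876 at least 2-fold higher in the striatum and blue for the 1128 at least 2-fold higher in the hippocampus at an adjusted p under 0.05, and names mark genes described in the text, from *Adora2a* at 7.43 to *Lct* at -9.35.

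Some libraries carried markers of tissue that borders the dissected region, and the affected counts are given with and without them. Markers of the choroid plexus, the secretory epithelium of the ventricles, summed to 471, 467 and 9024 CPM in the striatum and 9759, 3735 and 3593 CPM in the hippocampus. Striatum replicate 3 was within the range of the hippocampus and the other 2 striatum libraries were far below it. *Ttr*, the transthyretin gene that dominates this tissue, measured 25.8, 25.8 and 5627 CPM in the striatum and 6078, 2203 and 2036 CPM in the hippocampus. Markers of the thalamus summed to 253, 265 and 446 CPM in the striatum and 1077, 591 and 1056 CPM in the hippocampus, lowest among hippocampus libraries in replicate 2. Striatum replicate 1 had the highest levels of several genes of cortical glutamate neurons among the striatum libraries, with *Tbr1* at 11.2, 1.5 and 2.41 CPM, and hippocampus replicate 1 had the highest levels of several striatal genes among the hippocampus libraries, with *Six3* at 18.4, 2.1 and 5.21 CPM. The counts of regional genes were 876 and 1128 with all libraries. Without striatum replicate 3 they were 887 and 1336, and without striatum replicate 1 they were 782 and 953. With hippocampus replicate 2 as the one hippocampus library, an alternative added after the data were seen, they were 768 and 953. That library was chosen for its low thalamic sum, and a lone library is assumed to vary like those of the other region and gives less power, so this value shows nothing about thalamic genes. Without any one of the other libraries they were 819 to 857 and 969 to 1061.

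**Figure D2:**
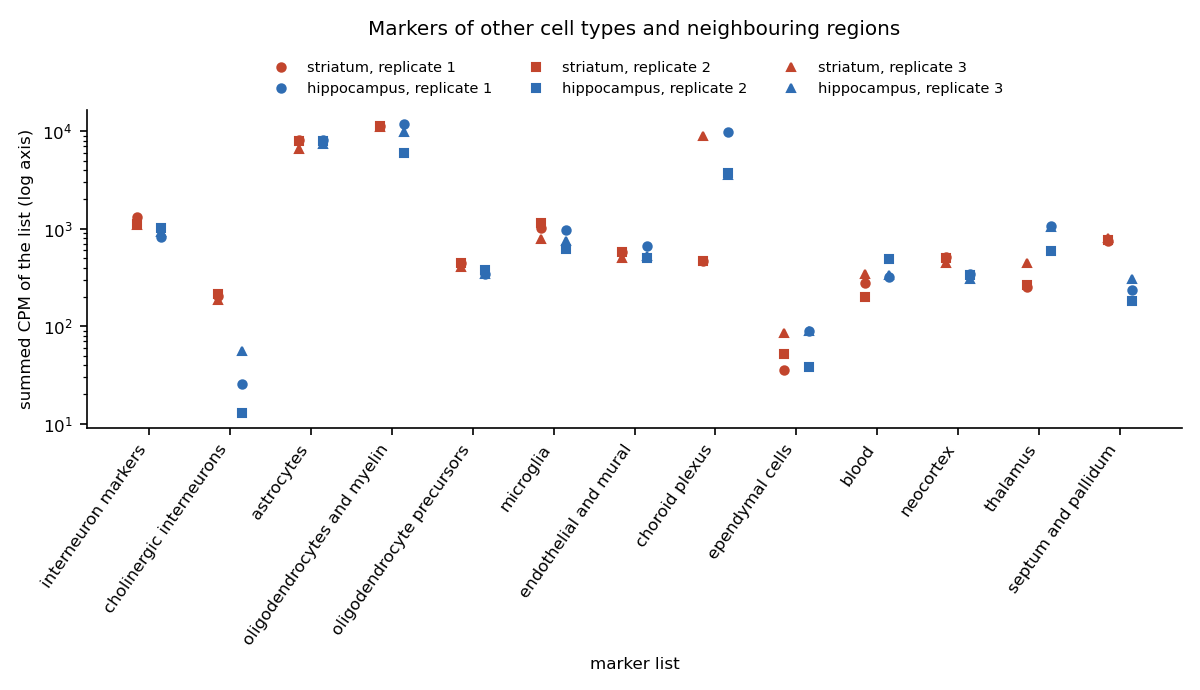
Summed CPM (log axis) of marker lists for other cell types and neighbouring regions in the 6 WT libraries. Red points are striatum and blue points hippocampus, with a symbol per replicate. The choroid plexus sum of striatum replicate 3 lies among the hippocampus libraries, and the thalamic sums of hippocampus replicates 1 and 3 lie above the others.

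The genes with the largest differences were taken from called genes whose values did not overlap between regions, so their separation follows from the choice. They included *Adora2a* and *Gpr6* in the striatum and *Lct*, *Neurod6* and *Neurod2* in the hippocampus. *Adora2a* (ENSMUSG00000020178, chr10:75316877-75334784 on the plus strand, GRCm38), an adenosine receptor of indirect pathway neurons, measured 442, 381 and 353 CPM in the striatum and 3.21, 1.76 and 1.88 CPM in the hippocampus. Every striatum library was above every hippocampus library (log2 fold change 7.43 ± 0.23 SE, adjusted p = 9.82e-07). *Gpr6*, an orphan receptor of indirect pathway neurons, measured 112, 97.4 and 82.2 CPM in the striatum and 0.722, 0.954 and 0.765 CPM in the hippocampus, with a log2 fold change of 6.89 ± 0.18 (SE). The other striatal genes described from this group were *Gpx6*, a glutathione peroxidase, *Serpina9*, a serpin, *Cd4*, best known as the co-receptor of helper T cells, *Ido1*, an enzyme that breaks down tryptophan, and *Sh3rf2*, an SH3 domain protein. Their levels ran from 21.2 to 23.2 CPM (*Ido1*) to 104 to 139 CPM (*Cd4*) in the striatum, and none of the 5 exceeded 1.88 CPM in a hippocampus library.

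At the other end, *Lct* (chr1:128284756-128328318 on the minus strand), the gene of the lactose-splitting enzyme lactase, measured 0.188, 0.0367 and 0.105 CPM in the striatum and 93.6, 64.4 and 64.4 CPM in the hippocampus. The striatum level rests on 5, 1 and 3 reads, so the size of the difference is poorly fixed although its direction is shared by all libraries (log2 fold change -9.35 ± 0.32 SE, adjusted p = 1.32e-06). *Neurod6* (chr6:55677822-55681263 on the minus strand), a helix-loop-helix factor of cortical glutamate neurons, measured 2.59, 0.514 and 0.629 CPM in the striatum and 322, 333 and 239 CPM in the hippocampus. Striatum replicate 1 was the highest of the striatum libraries and still below every hippocampus library (log2 fold change -7.91 ± 0.48 SE, adjusted p = 1.3e-05). *Neurod2* had 4.88, 0.807 and 0.839 CPM in the striatum and 272, 248 and 214 CPM in the hippocampus, with the same order of striatum libraries, and *Neurod1* had 0.0376, 0.183 and 0.594 CPM in the striatum and 29.5, 31 and 26.9 CPM in the hippocampus. *Bhlhe22* and *Prdm8*, which encode partners in a repressor complex of developing neurons, were at 103 to 120.2 and 75.2 to 99 CPM in the hippocampus and no higher than 1.47 and 0.714 CPM in the striatum. *Smoc2*, a matricellular protein, and *Rtn4rl2*, a Nogo receptor homolog, completed the group with log2 fold changes of -6.28 ± 0.26 and -5.86 ± 0.52 (SE).

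**Figure D3:**
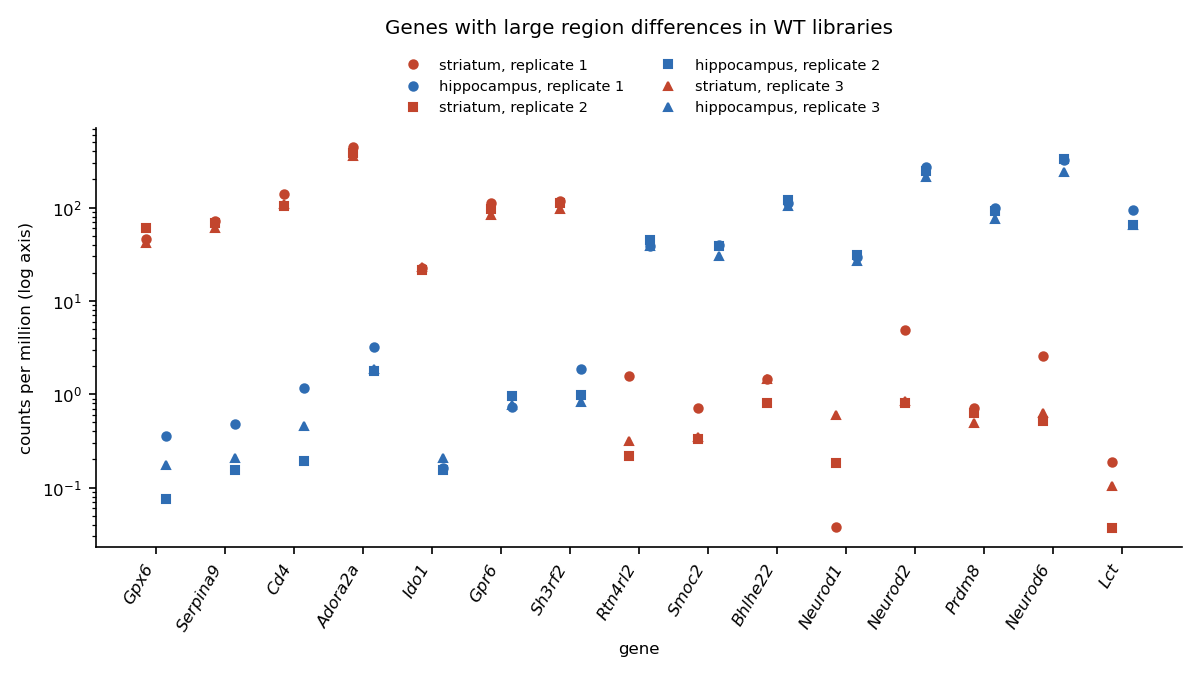
CPM on a log axis, in every WT library, of genes chosen for the largest differences, 7 higher in the striatum and 8 higher in the hippocampus. Red points are striatum and blue points hippocampus, with a symbol per replicate. The genes were chosen among called genes without overlap between regions, so for each the 3 striatum values lie apart from the 3 hippocampus values.

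Promoters were searched for the motif that NeuroD factors bind, a choice made after the values of *Neurod1*, *Neurod2* and *Neurod6* were seen, and 4 are shown, chosen so that each region has one gene with the motif and one without. The first pair is *Rgs9* and *Drd2*, regional in the striatum, and the second is *Neurod2* and *Neurod6*, regional in the hippocampus. Each line gives the 250 bases before the RefSeq start of the gene in GRCm38.p6, from 5′ to 3′ on the gene's strand, with the NeuroD E-box (CAGATG on either strand) in capitals.
Rgs9 (chr11:109298182-109298431, minus strand): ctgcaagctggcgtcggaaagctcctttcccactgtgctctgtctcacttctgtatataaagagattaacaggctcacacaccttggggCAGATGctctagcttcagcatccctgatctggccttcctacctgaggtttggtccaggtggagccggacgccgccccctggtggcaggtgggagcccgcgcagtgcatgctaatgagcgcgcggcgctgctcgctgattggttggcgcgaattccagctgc
Drd2 (chr9:49340153-49340402, plus strand): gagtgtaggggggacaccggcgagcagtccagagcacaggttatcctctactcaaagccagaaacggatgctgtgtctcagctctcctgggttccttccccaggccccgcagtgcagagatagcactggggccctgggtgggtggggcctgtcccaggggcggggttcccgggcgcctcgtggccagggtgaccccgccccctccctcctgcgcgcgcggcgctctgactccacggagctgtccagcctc
Neurod2 (chr11:98329646-98329895, minus strand): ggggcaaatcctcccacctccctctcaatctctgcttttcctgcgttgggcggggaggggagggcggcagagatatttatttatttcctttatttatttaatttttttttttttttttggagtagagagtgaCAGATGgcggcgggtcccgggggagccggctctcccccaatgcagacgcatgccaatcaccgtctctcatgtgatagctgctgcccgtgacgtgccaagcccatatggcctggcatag
Neurod6 (chr6:55681264-55681513, minus strand): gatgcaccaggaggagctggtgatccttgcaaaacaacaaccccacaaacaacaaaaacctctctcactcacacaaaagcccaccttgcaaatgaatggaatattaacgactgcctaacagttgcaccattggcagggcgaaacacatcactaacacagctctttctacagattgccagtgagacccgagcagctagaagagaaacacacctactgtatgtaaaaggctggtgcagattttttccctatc
RefSeq promoters were matched by symbol for 12783 of the genes tested, some with several starts. The E-box was in 11.7% of the promoters of genes regional in the striatum, in 13.4% of those regional in the hippocampus, in 10.8% of those of all genes tested and in 14.4% of all promoters in the table. The cAMP response element (TGACGTCA) was in 1.36%, 1.30%, 2.34% and 1.55% of these 4 sets, the homeodomain core TAATTA in 3.58%, 3.61%, 2.87% and 4.84%, and the forkhead core TGTTTAC in 2.22%, 2.04%, 2.24% and 3.17%. These shares describe letters in a short window and not binding.

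Markers of direct pathway neurons were mostly regional in the striatum, 9 of 12 tested against the 4.99% of all genes, with a median log2 fold change of 3.06 where all genes tested had a median of −0.0201. *Drd1* (chr13:54051183-54055705 on the minus strand), the D1 dopamine receptor, measured 439.8, 385 and 323 CPM in the striatum and 8.1, 6.26 and 7.23 CPM in the hippocampus. The striatum values were all above the hippocampus ones (log2 fold change 5.73 ± 0.16 SE, adjusted p = 6.51e-07). *Tac1*, the precursor of substance P, had 242, 234 and 175 CPM in the striatum and 3.89, 5.69 and 10.2 CPM in the hippocampus (5.03 ± 0.33, adjusted p = 2.06e-05), and *Pdyn*, the precursor of dynorphin, had 158, 159 and 119 CPM in the striatum and 19.4, 13.7 and 15 CPM in the hippocampus (3.18 ± 0.17, adjusted p = 6.9e-06). *Isl1*, a factor that specifies these neurons, was at 16.8, 19.96 and 18 CPM in the striatum and at 1.44, 0.114 and 0.174 CPM in the hippocampus, where replicate 1 was the highest. *Slc35d3*, which acts on D1 receptor traffic, had a log2 fold change of 5.88 ± 0.14 (SE). The members below that size included *Eya1*, at 0.00916 ± 0.13 with overlapping values, and *Sfxn1*, at 0.33 ± 0.0831 (SE).

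In the indirect pathway list 8 of 13 genes were regional in the striatum and none in the hippocampus (median log2 fold change 2.23). *Drd2* (chr9:49340627-49408177 on the plus strand), the D2 dopamine receptor, measured 257, 246 and 249 CPM in the striatum and 5.33, 4.08 and 4.59 CPM in the hippocampus. Its striatum values were close together and did not overlap the hippocampus (log2 fold change 5.74 ± 0.12 SE, adjusted p = 2.61e-07). *Penk*, the enkephalin precursor, measured 1705, 1503 and 1650.2 CPM in the striatum and 51, 48.2 and 33.7 CPM in the hippocampus, all striatum libraries above all hippocampus ones (log2 fold change 5.19 ± 0.19 SE, adjusted p = 1.56e-06). It overlaps a gene on the opposite strand, and since the strand setting of the counting is not stated, its reads and those of its partner cannot be told apart with certainty. Among the other regional genes named here the same limit holds for *Adcy2*, *Adra1d*, *Arpp21*, *Bdnf*, *Camk4*, *Dlx6*, *Drd5*, *Dsp*, *Gabra5*, *Gnal*, *Gnas*, *Gnb5*, *Gng2*, *Grm2*, *Hes5*, *Homer2*, *Homer3*, *Htr1b*, *Id4*, *Jun*, *Kcnj3*, *Kcnj6*, *Kcnj9*, *Neurod1*, *Nfix*, *Nr3c2*, *Plxna1*, *Ppp1r1b*, *Prdm8*, *Prkca*, *Prox1*, *Rarb*, *Rasgrp2*, *Six3*, *Slc32a1*, *Sp9* and *Syndig1l*. *Sp9*, a transcription factor needed by these neurons, and *Grik3*, a kainate receptor subunit, had log2 fold changes of 2.51 ± 0.12 and 1.88 ± 0.0796 (SE). *Gucy1a1*, a subunit of the nitric oxide receptor guanylyl cyclase, differed by 2.23 ± 0.20 and its partner *Gucy1b1* by 0.85 ± 0.11 (SE).

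Signalling proteins of spiny projection neurons were nearly all higher in the striatum, with 25 of 26 regional in the striatum and a median log2 fold change of 3.30. *Ppp1r1b*, which encodes DARPP-32, the phosphatase inhibitor that integrates dopamine and glutamate signals, measured 2639, 2244 and 2216 CPM in the striatum and 96.8, 73.8 and 71.4 CPM in the hippocampus. The hippocampus libraries were all far lower (log2 fold change 4.87 ± 0.17 SE, adjusted p = 1.56e-06). *Adcy5*, the adenylyl cyclase of the striatum, had 2080.4, 1785 and 1542 CPM in the striatum and 144, 151 and 134 CPM in the hippocampus (3.66 ± 0.14, adjusted p = 2.05e-06), and *Gnal*, the stimulatory G protein alpha subunit that couples receptors to it, had 1119, 1046 and 1029 CPM in the striatum and 240.0, 195 and 207 CPM in the hippocampus (2.32 ± 0.11, adjusted p = 4.86e-06). *Rgs9*, a brake on receptor signalling, was at 479 to 519 CPM against 7.44 to 9.26 CPM and differed by 5.89 ± 0.12 (SE). *Pde10a*, which breaks down cyclic nucleotides, was at 2097 to 2377 CPM against 76.4 to 98.9 CPM and differed by 4.65 ± 0.15 (SE). *Syndig1l*, *Rasgrp2*, *Arpp21* and *Rasd2* ranged from 3.61 to 4.87. *Prkca*, a protein kinase C isoform, was the one member regional in the hippocampus (-1.48 ± 0.0899, SE).

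The transcription factors also divided by region. Of 29 factors listed for the striatum, 20 were regional there (median 2.43). *Foxp1*, a forkhead factor of projection neurons, measured 540.0, 519 and 502 CPM in the striatum and 93.2, 109 and 88.1 CPM in the hippocampus (2.43 ± 0.10, adjusted p = 2.41e-06). *Meis2*, a homeodomain factor, measured 653, 664 and 678 CPM in the striatum and 41.3, 65.3 and 35.9 CPM in the hippocampus (3.81 ± 0.22, adjusted p = 1.11e-05), and *Bcl11b*, the zinc finger CTIP2, was at 460.2 to 520.5 CPM in the striatum and still at 194 to 235 CPM in the hippocampus. *Rxrg*, a retinoid X receptor, was at 123 to 145 against 1.8 to 2.33 CPM, the largest difference in the list (6.11 ± 0.14, SE) except for *Lhx8*. *Lhx8*, a factor of cholinergic and pallidal neurons, was at 12, 13 and 12.4 CPM in the striatum and rested on 1, 1 and 0 reads in the hippocampus, and no fold is given. *Dlx5* and *Dlx6* were regional in the striatum (2.75 ± 0.15 and 3.71 ± 0.095, SE), whereas *Dlx1*, of the same homeobox family, had its higher level in the hippocampus (-0.66 ± 0.19, adjusted p = 0.0352), a call lost without any one of 4 libraries, with adjusted p then of 0.0888 to 0.138.

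Of 31 factors listed for the hippocampus, 20 were regional there against the 6.43% of all genes (median -1.65). *Prox1*, which maintains the identity of dentate granule cells, measured 33.4, 35.7 and 47.6 CPM in the striatum and 209, 140.1 and 154 CPM in the hippocampus. The regions did not overlap, although the striatum had clear levels (log2 fold change -2.10 ± 0.19 SE, adjusted p = 9.64e-05). *Zbtb20*, a zinc finger factor of hippocampal identity, was at 155 to 221 CPM in the striatum and 294 to 376 CPM in the hippocampus (-0.93 ± 0.15, adjusted p = 0.00284). *Emx1* and *Lhx9* differed by -4.63 ± 0.50 and -4.81 ± 0.58 (SE), *Tcf4* by -1.70 ± 0.0951, *Nfib* by -1.91 ± 0.0973 and *Nfix* by -1.65 ± 0.16. *Id4*, an inhibitor of helix-loop-helix factors, went the other way and was regional in the striatum (1.45 ± 0.12, SE). *Lhx9* is also in the thalamus list and was at 22.7, 28.5 and 35.8 CPM in the hippocampus, highest in replicate 3.

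Markers of the dentate gyrus and of the CA fields held regional genes in both directions. In the dentate list 11 of 20 genes were regional in the hippocampus and 4 in the striatum (median -1.18). *Dsp*, the desmosome protein desmoplakin, had 1.5, 2.9 and 4.61 CPM in the striatum and 63.2, 46.1 and 46.3 CPM in the hippocampus (-4.10 ± 0.35, adjusted p = 7.46e-05), and *C1ql2*, a secreted synaptic organizer of mossy fibers, had 2.37, 2.35 and 3.18 CPM in the striatum and 98.2, 68.7 and 63.6 CPM in the hippocampus (-4.86 ± 0.22, adjusted p = 3.18e-06). The 4 genes in the other direction were *Penk*, *Gabrd*, *Calb1* and *Pdzd2*, of which *Calb1*, the calcium buffer calbindin, was at 297 to 355 CPM in the striatum and 95.6 to 135 CPM in the hippocampus. In the CA list 18 of 30 were regional in the hippocampus and 2 in the striatum (median -1.57). *Spink8* and *Fibcd1*, markers of CA1, had log2 fold changes of -4.10 ± 0.26 and -2.84 ± 0.24 (SE). *Grik4*, a kainate subunit of CA3, had 15.7, 15.5 and 16.3 CPM in the striatum and 61.8, 75.4 and 57.2 CPM in the hippocampus (-2.03 ± 0.12, adjusted p = 1.05e-05). *Ccn3*, a matricellular protein of CA1, varied among the hippocampus libraries at 31.7, 109 and 57.1 CPM and was at 5.97, 2.09 and 1.61 CPM in the striatum. *Wfs1*, the wolframin gene, a CA1 marker within the hippocampus, was at 189, 222 and 179 CPM in the striatum and 181, 144 and 180.2 CPM in the hippocampus, overlapping and not called (0.22 ± 0.12, adjusted p = 0.236). *Rgs14*, a CA2 marker, was higher in the hippocampus by under 2-fold (-0.50 ± 0.12, adjusted p = 0.0193), and it was not called without any one of 5 libraries, with adjusted p of 0.0503 to 0.0808. *Avpr1b*, the vasopressin 1b receptor of CA2, was at 0 reads in every striatum library, which allows up to 0.110 CPM, and at 0.842, 0.572 and 0.521 CPM in the hippocampus. *Pcp4* and *Coch* were regional in the striatum (2.15 ± 0.24 and 3.65 ± 0.35, SE).

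**Figure D4:**
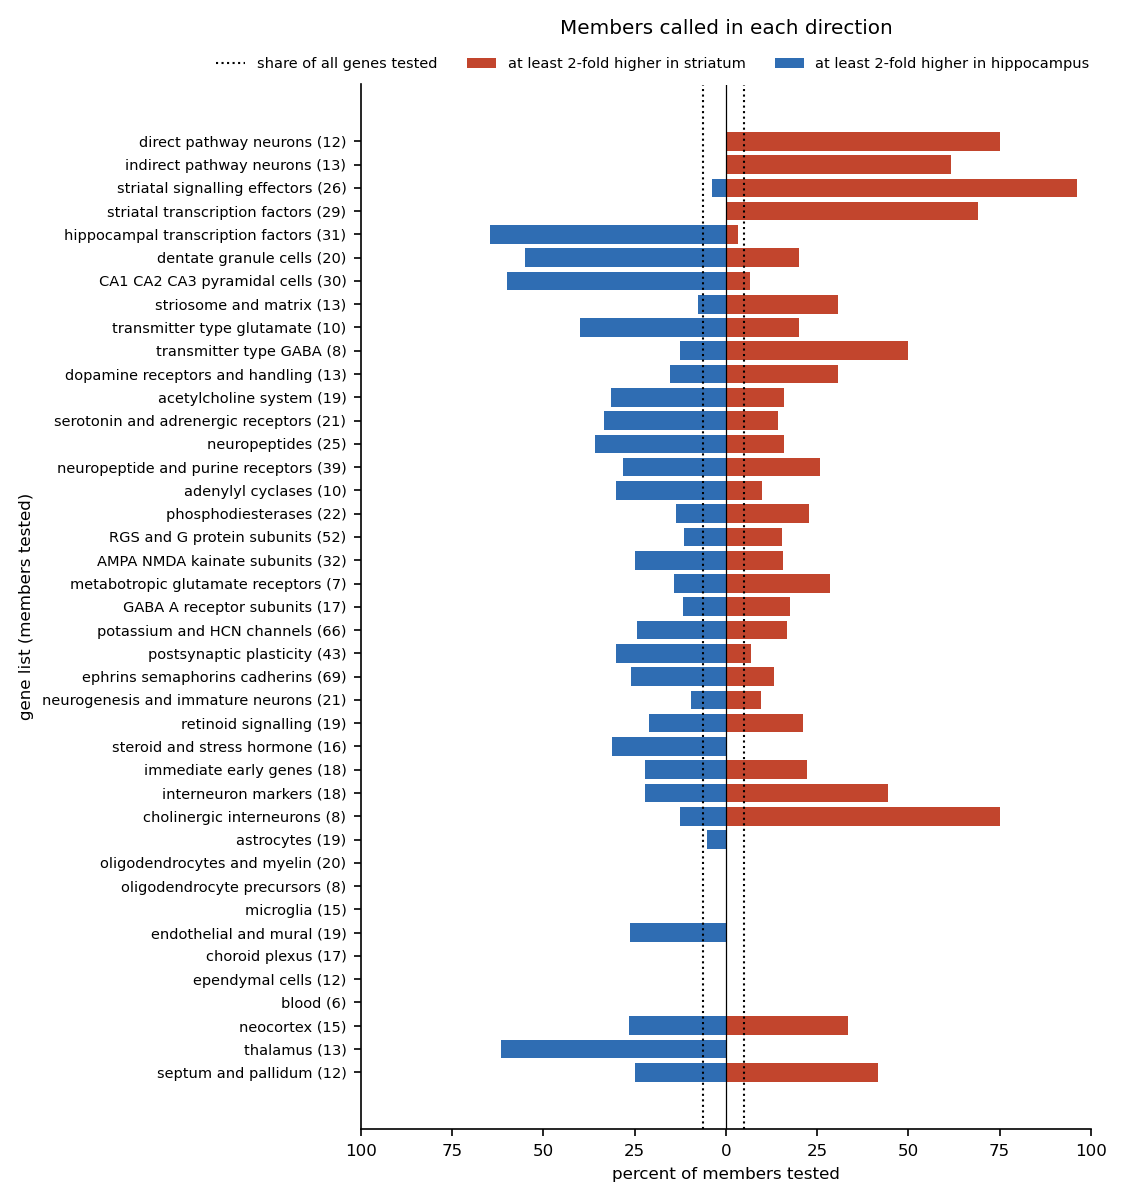
Percent of tested members of each gene list that were regional, to the right for striatum (red) and to the left for hippocampus (blue). Numbers beside the names give the members tested, and dotted lines give the shares over all 17545 genes, 4.99% and 6.43%. The striatal neuron lists lie to the right, the hippocampal lists to the left, and glial lists near 0.

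Within the striatum, the opioid-rich patches called striosomes and the surrounding matrix are told apart by their own markers. In the list of both 4 of 13 genes were regional in the striatum and 1 in the hippocampus. *Cntnap3*, a neurexin family adhesion protein, differed by 3.58 ± 0.19 (SE). *Oprm1*, the mu opioid receptor and classical striosome marker, was at 4.24, 3.23 and 3.91 CPM in the striatum and 1.04, 2.02 and 3.48 CPM in the hippocampus, overlapping and not called (0.79 ± 0.38, adjusted p = 0.178), but called without hippocampus replicate 3 (adjusted p = 0.0314). *Kremen1*, a Wnt pathway receptor, was higher in the striatum under 2-fold (0.93 ± 0.14, SE), and *Sema5b*, a semaphorin, was not called.

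The list for glutamate transmission held 10 genes, the transporters of neurons and astrocytes, glutaminase, the receptors *Grm2* and *Grm3* and the transcription factor *Tbr1*. Of these, *Slc17a6*, *Slc17a7*, *Grm2* and *Tbr1* were regional in the hippocampus and *Slc17a8* and *Grm3* in the striatum. Of 8 genes of GABA synthesis, transport and breakdown, 4 were regional in the striatum and 1 in the hippocampus. *Slc17a7*, the vesicular glutamate transporter VGLUT1, measured 64.9, 10.7 and 26.5 CPM in the striatum and 1361, 1775 and 1362 CPM in the hippocampus. The hippocampus was higher in every library, and striatum replicate 1 was the highest of the striatum libraries (log2 fold change -5.46 ± 0.62 SE, adjusted p = 0.000377). *Slc17a6* (VGLUT2), also a thalamic marker, had 5.18, 5.87 and 28.2 CPM in the striatum and 87.2, 57.3 and 122 CPM in the hippocampus (-2.75 ± 0.63, adjusted p = 0.014), and it was not called without hippocampus replicate 3 (adjusted p = 0.0501) or with the hippocampus library of lane 5 alone (adjusted p = 0.0627), where the striatum libraries supply the spread. *Slc17a8* (VGLUT3) went the other way (1.62 ± 0.15, SE). *Slc32a1*, which loads GABA into vesicles, had 288, 283 and 246 CPM in the striatum and 54.4, 61.6 and 58.6 CPM in the hippocampus, without overlap (log2 fold change 2.23 ± 0.0949 SE, adjusted p = 2.41e-06), and the GABA-synthesizing *Gad1* and *Gad2* differed by 1.32 ± 0.11 and 1.63 ± 0.0969 (SE). *Abat*, which degrades GABA, was at 1.03 ± 0.084 (SE).

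Of 13 dopamine genes 4 were regional in the striatum and 2 in the hippocampus. Beside *Drd1* and *Drd2*, *Drd3* was higher in the striatum at 0.979 to 1.36 against 0.0348 to 0.16 CPM, a very low level. *Drd5*, the D1-like receptor of the hippocampus, measured 3.46, 2.5 and 2.38 CPM in the striatum and 9.1, 10.9 and 10.5 CPM in the hippocampus, without overlap (log2 fold change -1.87 ± 0.19 SE, adjusted p = 0.000175). *Drd4* was at or below 0.33 CPM in all 6 libraries. *Nr4a2*, an orphan nuclear receptor of dopamine neurons that is also made in cortex, was at 6.76, 1.5 and 1.43 CPM in the striatum, highest in replicate 1, and at 51, 50.1 and 73.8 CPM in the hippocampus (-4.18 ± 0.55, adjusted p = 0.000836). *Th*, for tyrosine hydroxylase, was at 3.67 to 6.75 against 0.481 to 1.49 CPM, and *Slc6a3*, the dopamine transporter gene of the dopamine neuron bodies, was at or below 1.32 CPM in all libraries and not called.

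Genes of acetylcholine synthesis and transport were higher in the striatum, and several receptor subunits were higher in the hippocampus. *Chat*, the enzyme of acetylcholine synthesis, measured 34.6, 31.9 and 25.1 CPM in the striatum and 0.2, 0.0382 and 3.79 CPM in the hippocampus, and hippocampus replicate 3 stood above the other hippocampus libraries (log2 fold change 4.46 ± 0.91 SE, adjusted p = 0.00813). *Slc5a7*, the choline transporter, had 76.6, 73.9 and 64.1 CPM in the striatum and 0.682, 0.725 and 16.5 CPM in the hippocampus and was again highest among hippocampus libraries in replicate 3 (3.56 ± 0.96, adjusted p = 0.029), and it was not called without hippocampus replicate 2 or without striatum replicate 1 or 2, with adjusted p of 0.0554 to 0.0644. *Chrm4*, the inhibitory muscarinic receptor of direct pathway neurons, had 148, 115 and 109 CPM in the striatum and 12.8, 19.8 and 15.6 CPM in the hippocampus (2.95 ± 0.18, adjusted p = 1.48e-05). *Chrm3* was higher in the hippocampus (6.72 to 8.04 CPM in the striatum and 35.8 to 41.8 CPM in the hippocampus), as was the nicotinic subunit *Chrna5* (0.175 to 0.225 CPM in the striatum and 3.41 to 5.15 CPM in the hippocampus). *Chrna3* and *Chrnb4*, nicotinic subunits of the habenula, were at 1.6, 3.36 and 23.4 CPM and 1.88, 0.916 and 19.1 CPM in the hippocampus, where replicate 3 was far above the others, and at most 2.06 CPM in the striatum. *Chrna3* was called (-3.20 ± 0.94, adjusted p = 0.0408) and *Chrnb4* was not (-2.51 ± 1.05, adjusted p = 0.124). In all 3 of 19 genes were regional in the striatum, the hippocampus had 6, and with striatum replicate 2 as the one striatum library the counts were 1 and 3.

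Serotonin and adrenergic receptors held regional genes on both sides, 3 and 7 of 21. Among serotonin receptors of the first class, *Htr1d* had 14.2, 12 and 13.4 CPM in the striatum and 0.321, 0.458 and 0.313 CPM in the hippocampus (5.16 ± 0.20, adjusted p = 1.99e-06) and *Htr1b* had 19.8, 20.1 and 16.7 CPM in the striatum and 1.72, 2.94 and 1.74 CPM in the hippocampus (3.14 ± 0.22, adjusted p = 3.15e-05), both higher in the striatum without overlap. *Htr1a* had 3.08, 4.4 and 3.18 CPM in the striatum and 30.4, 38.8 and 25.9 CPM in the hippocampus, higher in the hippocampus without overlap (log2 fold change -3.15 ± 0.21 SE, adjusted p = 1.99e-05). Among alpha adrenergic receptors, *Adra1d* had 0.902, 2.75 and 3.81 CPM in the striatum and 40.5, 51.2 and 45.5 CPM in the hippocampus (-4.19 ± 0.40, adjusted p = 0.00014), whereas *Adra2c* was higher in the striatum (1.83 ± 0.15, SE) and *Adra2a* higher in the hippocampus (-1.27 ± 0.14, SE). *Htr4* and *Htr6* were called but under 2-fold, at -0.98 and 0.78.

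Among 25 peptide and trophic factor genes 4 were regional in the striatum and 9 in the hippocampus. The striatal ones were *Penk*, *Tac1*, *Pdyn* and *Nxph4*. *Cck*, the cholecystokinin gene, measured 14, 5.25 and 11.2 CPM in the striatum and 229.8, 243 and 220.3 CPM in the hippocampus. All hippocampus libraries were above all striatum ones (log2 fold change -4.51 ± 0.31 SE, adjusted p = 2.6e-05). *Bdnf*, the neurotrophin that supports plasticity, measured 1.65, 1.03 and 0.874 CPM in the striatum and 59.2, 54.3 and 63.5 CPM in the hippocampus, also without overlap (log2 fold change -5.64 ± 0.21 SE, adjusted p = 1.58e-06). *Grp* and *Cort*, for gastrin-releasing peptide and cortistatin, were at most 6.30 CPM in any library and were higher in the hippocampus (-4.87 ± 0.73 and -4.13 ± 0.44, SE). *Sst* and *Npy*, peptides of interneurons in both regions, were not called (0.27 ± 0.11, adjusted p = 0.124 and 0.34 ± 0.13, adjusted p = 0.109). Peptide, purine, cannabinoid and histamine receptors gave 10 and 11 of 39. The hippocampal count was 7 without hippocampus replicate 2. Of the somatostatin receptors, *Sstr1*, *Sstr2*, *Sstr3* and *Sstr4* were regional in the hippocampus, among them *Sstr3*, a receptor of neuronal cilia, at 2.2 to 2.34 CPM in the striatum and 32.4 to 38.2 CPM in the hippocampus (-3.93 ± 0.12, SE). *Sstr5* was regional in the striatum, at 7.83 to 14.5 CPM in the striatum and 0.16 to 0.42 CPM in the hippocampus (5.38 ± 0.40, SE). The opioid receptors *Oprk1* and *Oprd1* were regional in the striatum (3.45 ± 0.20 and 1.94 ± 0.15, SE), and *Adora1*, the inhibitory adenosine receptor, was higher in the hippocampus (-0.82 ± 0.11, SE).

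Several families of the cyclic nucleotide pathway had different members in each region. Among 10 adenylyl cyclases, *Adcy5* was the one member regional in the striatum, and *Adcy1*, *Adcy2* and *Adcy8* were regional in the hippocampus. *Adcy1*, a calmodulin-stimulated cyclase, measured 401, 320.4 and 326 CPM in the striatum and 1730.0, 1386 and 1458 CPM in the hippocampus. The regions did not overlap (log2 fold change -2.13 ± 0.14 SE, adjusted p = 2.06e-05). *Adcy3*, the cyclase of neuronal cilia, was higher in the striatum at 0.88 ± 0.12 (SE). Of 22 phosphodiesterases 5 were regional in the striatum and 3 in the hippocampus. The calmodulin-dependent members *Pde1b* and *Pde1a* went in opposite directions, with *Pde1b* at 1676, 1447 and 1456 CPM in the striatum and 131, 149 and 142 CPM in the hippocampus (3.44 ± 0.12, adjusted p = 1.27e-06) and *Pde1a* at 46, 56.7 and 42.5 CPM in the striatum and 143, 268 and 173 CPM in the hippocampus (-2.01 ± 0.23, adjusted p = 0.00039). *Pde11a*, a low-level enzyme of the ventral hippocampus, was at 4.37, 12.1 and 9.56 CPM there against 1.09 to 1.58 CPM in the striatum.

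Among RGS proteins and G protein subunits the counts were 8 and 6 of 52. The paralogous stimulatory alpha subunits went in opposite directions, with *Gnal* higher in the striatum and *Gnas* at 115, 131 and 137 CPM in the striatum and 281, 315 and 268 CPM in the hippocampus (-1.17 ± 0.0999, adjusted p = 7.83e-05). The gamma subunits did the same. *Gng7*, the partner of *Gnal*, had 1733, 1625 and 1284 CPM in the striatum and 193, 215 and 188 CPM in the hippocampus (2.96 ± 0.14, adjusted p = 4.86e-06), and *Gng2* had 57.5, 64 and 76.5 CPM in the striatum and 379, 441 and 341 CPM in the hippocampus (-2.55 ± 0.14, adjusted p = 8.58e-06). *Rgs4* and *Rgs2*, regulators that shorten signals of Gq and Gi, were regional in the striatum (2.47 ± 0.14 and 2.17 ± 0.11, SE). *Gnb5*, the beta subunit that binds *Rgs9*, was regional in the striatum too (1.51 ± 0.16, SE).

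Ionotropic glutamate receptor subunits and their auxiliary proteins were regional in both directions. Of 32 genes 5 were regional in the striatum and 8 in the hippocampus. *Gria1* and *Grin2a*, an AMPA and an NMDA receptor subunit, were regional in the hippocampus (-1.05 ± 0.11 and -1.50 ± 0.23, SE). *Shisa6*, which holds AMPA receptors at synapses, measured 6.99, 5.36 and 8.84 CPM in the striatum and 230.2, 224 and 172 CPM in the hippocampus, without overlap (log2 fold change -4.88 ± 0.20 SE, adjusted p = 2.31e-06). *Cnih3*, a cornichon auxiliary protein, was also regional in the hippocampus (-2.52 ± 0.22, SE), and *Gsg1l*, another auxiliary protein, in the striatum (2.28 ± 0.15, SE). The TARP auxiliary subunits divided, *Cacng8* to the hippocampus (-1.42 ± 0.12) and *Cacng4* to the striatum (2.11 ± 0.12), as did the kainate subunits *Grik4* and *Grik3*. Among metabotropic receptors, *Grm2*, a presynaptic receptor of granule cells, had 1.95, 2.35 and 3.08 CPM in the striatum and 60.4, 47.8 and 58.3 CPM in the hippocampus (-4.49 ± 0.18, adjusted p = 2.21e-06), and *Grm4*, which also acts at nerve terminals, had 135, 123 and 102 CPM in the striatum and 33.8, 19.5 and 30.1 CPM in the hippocampus (2.11 ± 0.20, adjusted p = 0.000146). *Grm5* was at 0.59 ± 0.14 (SE).

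GABA receptor genes held large differences in both directions. *Gabra5*, the extrasynaptic alpha subunit of pyramidal cells, measured 15.3, 14.7 and 19.4 CPM in the striatum and 218, 306 and 222 CPM in the hippocampus. The regions were far apart (log2 fold change -3.92 ± 0.18 SE, adjusted p = 3.3e-06). *Gabrd*, the delta subunit of tonic inhibition, measured 124, 109 and 103 CPM in the striatum and 32.2, 23.5 and 31.6 CPM in the hippocampus, higher in the striatum without overlap (log2 fold change 1.94 ± 0.14 SE, adjusted p = 2.79e-05). *Gabbr2*, a subunit of the GABA-B receptor, was at -2.15 ± 0.15 (SE). Over this list 3 of 17 genes were regional in the striatum and 2 in the hippocampus.

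Potassium and HCN channels had 11 and 16 regional genes of 66, both shares above those of all genes. Of the inward rectifiers that set the resting state of projection neurons, *Kcnj2* and *Kcnj4* were regional in the striatum (2.23 ± 0.17 and 1.84 ± 0.15, SE). *Kcnj6*, a channel opened by G proteins, measured 1.5, 1.87 and 2.1 CPM in the striatum and 48, 45.4 and 47.6 CPM in the hippocampus, higher in the hippocampus without overlap (log2 fold change -4.68 ± 0.14 SE, adjusted p = 7.23e-07), and *Kcnj3* and *Kcnj9* of the same group were regional there too (-2.51 ± 0.13 and -1.09 ± 0.0971, SE). *Kcnh4* and *Kcna5*, voltage-gated channels, were regional in the striatum (4.27 ± 0.18 and 4.14 ± 0.16, SE). *Kcna4*, an A-type channel, was higher in the striatum (1.53 ± 0.0844, SE).

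Among genes of the postsynaptic density and of plasticity the regional ones were mostly higher in the hippocampus, with 13 of 43 regional there and 3 in the striatum, although the median log2 fold change was only -0.13. *Camk2a*, the kinase of long-term potentiation, measured 2103, 1935 and 1727 CPM in the striatum and 5197, 5642 and 4008 CPM in the hippocampus, without overlap (log2 fold change -1.36 ± 0.17 SE, adjusted p = 0.000585). *Nptx1* and *Nptxr*, pentraxins that cluster AMPA receptors, differed by -3.75 ± 0.19 and -3.04 ± 0.16 (SE). The Homer scaffolds divided, with *Homer1* higher in the striatum (1.22 ± 0.13) and *Homer2* and *Homer3* higher in the hippocampus (-2.50 ± 0.0902 and -2.70 ± 0.13, SE). *Camk4* was regional in the striatum at 766 to 959.9 against 179.9 to 211 CPM. *Arc* and *Nrgn* had overlapping values and were not called (0.0589 ± 0.18, adjusted p = 0.85 and -0.12 ± 0.17, adjusted p = 0.644).

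Receptors and ligands of axon guidance and cell adhesion gave 9 regional genes in the striatum and 18 in the hippocampus of 69. *Sema3a* and *Plxnd1*, a repellent and a semaphorin receptor, were regional in the striatum, *Sema3a* at 46.8 to 52.7 CPM in the striatum and 4.77 to 5.94 CPM in the hippocampus and *Plxnd1* at 195 to 206 CPM in the striatum and 25.8 to 35.6 CPM in the hippocampus. *Slit1*, a repellent, measured 19.8, 21.3 and 16.2 CPM in the striatum and 182, 188 and 169 CPM in the hippocampus, higher in the hippocampus without overlap (log2 fold change -3.23 ± 0.12 SE, adjusted p = 1.56e-06). Neuropilins, the co-receptors of class 3 semaphorins, were regional in the hippocampus (*Nrp1* -2.20 ± 0.15 and *Nrp2* -2.67 ± 0.11, SE), as were *Sema5a* and *Plxna1* (-3.02 ± 0.17 and -2.53 ± 0.11, SE). Of the ephrin receptors, *Epha3*, *Epha5*, *Epha6*, *Epha7*, *Epha10*, *Ephb2* and *Ephb3* were regional in the hippocampus and *Epha8* in the striatum (1.13 ± 0.23, SE), where *Ephb1* was higher but under 2-fold (0.95 ± 0.0792, SE). *Epha7* differed by -1.67 ± 0.0817 (SE), and *Epha4* was higher in the hippocampus but under 2-fold (-0.92 ± 0.0941, SE).

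The retinoid list held receptors on both sides. *Rarb*, a retinoic acid receptor, had 135, 139.7 and 119 CPM in the striatum and 5.97, 6.64 and 6.05 CPM in the hippocampus, without overlap (log2 fold change 4.40 ± 0.10 SE, adjusted p = 3.33e-07), and *Rxrg* is given above. The carrier *Crabp1* was at 5.97 to 7.01 against 0.343 to 0.842 CPM. *Rara* and *Aldh1a2*, another receptor and a retinoic acid synthesizing enzyme, were regional in the hippocampus (-1.75 ± 0.15 and -2.04 ± 0.22, SE), so the list counted 4 and 4 of 19. In the steroid list 5 of 16 genes were regional in the hippocampus and none in the striatum. *Nr3c2*, the mineralocorticoid receptor, measured 75.9, 68.7 and 70.3 CPM in the striatum and 211, 296 and 241 CPM in the hippocampus, without overlap (log2 fold change -1.80 ± 0.13 SE, adjusted p = 3.18e-05), whereas *Nr3c1*, the glucocorticoid receptor, had 147 to 157 CPM in the striatum and 132 to 144 CPM in the hippocampus and was not called (0.15 ± 0.0746, adjusted p = 0.186). *Crhbp*, which binds corticotropin-releasing hormone, was at -3.39 ± 0.20 (SE).

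Immediate early genes did not share a direction, with 4 and 4 of 18 regional. *Fos* overlapped between regions (17, 26.2 and 24.5 CPM in the striatum and 24.3, 15.3 and 23.3 CPM in the hippocampus) and was not called. *Egr2*, *Fosb* and *Egr1* were higher in the striatum (1.94 ± 0.27, 1.26 ± 0.15 and 0.90 ± 0.14, SE), and *Jun* and *Nr4a3* higher in the hippocampus (-1.57 ± 0.14 and -2.06 ± 0.32, SE). In the neurogenesis list 2 and 2 of 21 genes were regional. *Dcx*, the marker of immature neurons, was at 11.4, 14.6 and 17.6 CPM in the striatum and 7.18, 10.5 and 10.5 CPM in the hippocampus and not called (0.63 ± 0.21, adjusted p = 0.0589), and *Eomes* was at or below 1.01 CPM throughout. The striatal members were *Hes5*, a Notch target, and *Top2a*, a topoisomerase of dividing cells, and *Top2a* lost its call without hippocampus replicate 2 or 3 or striatum replicate 2 or 3, with adjusted p of 0.0646 to 0.0871.

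Interneuron markers had 8 genes regional in the striatum and 4 in the hippocampus of 18. *Pvalb* overlapped between regions (28.4 to 69.4 CPM in the striatum and 33.4 to 42 CPM in the hippocampus) and was not called. *Nkx2-1* and *Lhx6*, factors of cells born in the medial ganglionic eminence, were regional in the striatum (4.04 ± 0.33 and 1.09 ± 0.17, SE), while *Vip* and *Calb2* were regional in the hippocampus (-3.03 ± 0.32 and -2.87 ± 0.34, SE). *Calb2* is also in the thalamus list and was at 29.2, 39.1 and 66.8 CPM in the hippocampus, highest in replicate 3. Markers of cholinergic interneurons were regional in the striatum for 6 of 8 genes, among them the receptor gene *Ngfr* (1.73 ± 0.28, SE) and the peptidase gene *Ecel1* (3.78 ± 0.15, SE). *Gbx2*, also in the thalamus list, was regional in the hippocampus (0.751, 1.06 and 1.22 CPM in the striatum and 5.25, 1.64 and 5.14 CPM in the hippocampus, -1.98 ± 0.45, adjusted p = 0.013), and *Zic4* was not called (-1.98 ± 0.64, SE, adjusted p = 0.0551).

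Glial and blood lists held almost no regional genes. None of 20 oligodendrocyte, 8 precursor, 15 microglial or 6 blood genes was regional, and their medians were 0.29, 0.16, 0.35 and -0.12. *Mbp*, of myelin, measured 3771, 3651 and 3709 CPM in the striatum and 4299, 1999 and 3053 CPM in the hippocampus, lowest in hippocampus replicate 2, and was not called (0.25 ± 0.25, adjusted p = 0.531). *Cx3cr1* of microglia was at 84.3 to 118 CPM in the striatum and 69.6 to 90.4 CPM in the hippocampus and was not called (0.39 ± 0.14, adjusted p = 0.0858), but was with the animal as a block (adjusted p = 0.0149), by DESeq2 (adjusted p = 0.0255), and without hippocampus replicate 1 (adjusted p = 0.0472) or striatum replicate 3 (adjusted p = 0.0164). Among 19 astrocyte genes *Thrsp*, a lipid synthesis regulator, was the one regional member (-1.52 ± 0.14, SE). *Aqp4*, the water channel, was higher in the hippocampus under 2-fold (-0.90 ± 0.15, SE), and *Gfap* varied within both regions (359.9, 750.1 and 300.3 CPM in the striatum and 1159, 598 and 679 CPM in the hippocampus) and was called with the animal as a block (adjusted p = 0.00425) or without striatum replicate 2 (adjusted p = 0.0175). In the vascular list the 5 genes regional in the hippocampus were *Dcn*, *Lum*, *Col1a1*, *Col1a2* and *Acta2*, which belong to fibroblasts and smooth muscle, and the endothelial genes *Cldn5*, *Flt1* and *Pecam1* were not called. The count was 3 without hippocampus replicate 1.

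None of 17 choroid plexus genes was regional with all libraries, and 16 of the 17 were regional in the hippocampus without striatum replicate 3. None of 12 ependymal genes was regional, and 2 were, in the hippocampus, without that library. Thalamic markers were regional in the hippocampus for 8 of 13 genes, and for 6 to 11 when 1 library was left out. *Tcf7l2*, the leading thalamic factor, measured 8, 9.14 and 27.2 CPM in the striatum and 113, 49.2 and 109.8 CPM in the hippocampus, highest in hippocampus replicates 1 and 3 (log2 fold change -2.61 ± 0.51 SE, adjusted p = 0.00633). *Prkcd* followed the same order (11.3, 18.4 and 50.5 CPM in the striatum and 185, 58.7 and 138 CPM in the hippocampus) and lost its call with the animal as a block (adjusted p = 0.0505) or without hippocampus replicate 1 or 3 or striatum replicate 1 or 2 (adjusted p of 0.0515 to 0.0854). Neocortical markers had 5 regional genes in the striatum, among them *Foxp2* and *Rspo1*, and 4 in the hippocampus, among them *Fezf2*, a factor that the hippocampus list also holds. Markers of septum and pallidum gave 5 and 3 of 12, and the hippocampal count was 5 without hippocampus replicate 2. The part of bordering tissue in any of the differences was not tested.

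The same contrast was then made in *Pcm1*-/- mice, whose 6 libraries entered the WT comparison only through the filter on low counts. *Pcm1* itself was at 3688 to 4919 reads per WT library and at 313 to 520 reads per mutant library. In the mutants 6912 genes (39.4%) were called and 2575 (14.7%) were called and at least 2-fold. Of the 2004 regional genes of WT mice 1997 had the same sign in the mutants, 1862 (92.9%) were called in the same direction and none in the opposite one. The 1795 genes that were regional in both genotypes, with the same sign, made up 89.6% of the WT list and 69.7% of the mutant list. The mutant list held 15 of the 17 choroid plexus genes, all higher in the hippocampus, and the WT list none. Log2 fold changes of both genotypes correlated across the 2004 genes at Pearson r = 0.965, a description in which genes are not independent and selection widens the range. Over all genes tested Pearson r was 0.885. *Drd2* differed by 6.67, *Neurod6* by -8.65 and *Lct* by -9.04 in the mutants on the log2 scale. Of the 312 list genes that were regional in WT mice 304 were called in the same direction in the mutants. The lists that fell short included thalamus (6 of 8), vascular (3 of 5) and acetylcholine (7 of 9). *Tcf7l2* was not called in the mutants (log2 fold change -1.59, adjusted p = 0.126). The interaction asks whether a region difference differs between the genotypes. It was called for no gene (0.0%) by edgeR, with 609 genes at an unadjusted p under 0.05, and for 23 by DESeq2. The WT striatum libraries were on lane 5 and the mutant ones on lanes 3 and 4. Within the striatum genotype and lane therefore cannot be told apart.

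**Figure D5:**
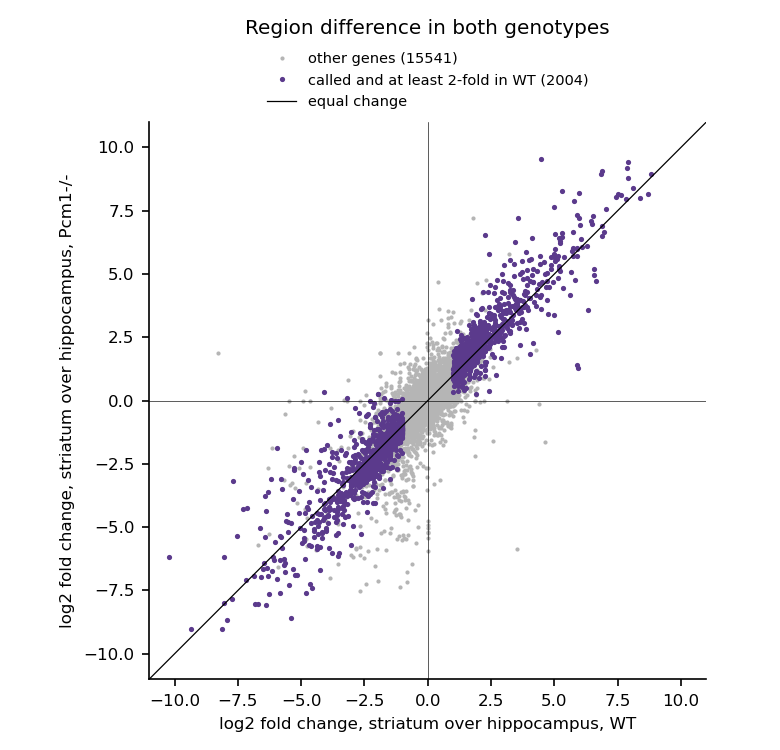
Log2 fold change of striatum over hippocampus in WT (x axis) and *Pcm1*-/- mice (y axis). Each point is a gene, purple for the 2004 regional genes of WT mice, and the line marks equal change. Purple points follow the line (Pearson r = 0.965, against 0.885 over all genes tested), and 1997 of them have the same sign on both axes.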

How the data were processed

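mRNA was sequenced from striatum and hippocampus of WT mice (KAPA stranded mRNA kits, Illumina HiSeq). The authors trimmed reads with Trim Galore and cutadapt, used STAR with the GRCm38 build, counted uniquely placed reads with HTSeq and deposited the raw counts of each library. Tool versions and the strand setting of the counting are not given in the sources used here. Rows that name no gene were left out of library sizes (86.8% to 89.1% of reads were on genes). Symbols and positions came from GENCODE vM21, which matched 36723 of 38561 genes.

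Groups came from sample titles. A gene was kept when any of the 18 libraries had 10 counts or more. The 6 libraries were then compared by the quasi-likelihood test of edgeR 4.0.16 (R 4.3.3), with TMM scaling and region as the single term, and p-values of all 17545 genes were adjusted by the Benjamini-Hochberg method. Python 3.11.15 served for tables and plots. A gene was called at an adjusted p under 0.05. The biological coefficient of variation was 17.4%, so spread between libraries of a region, not depth, sets the precision of all but low genes.

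With 1 library per mouse and region, p-values measure the spread between libraries within a region. Mouse, dissection and, in the hippocampus, lane cannot be told apart in that spread. The main test treated libraries of the same mouse as independent. The 41 lists (789 genes, 785 matched, 775 tested) were written from common knowledge of these regions, and the comparison and lists were chosen with earlier results of these data known. Named genes are, in each direction, the 8 largest changes among called genes without overlap and with a mean of at least 20 CPM in the higher region, and from each list the first 3 tested members and up to 2 called members with the largest change in each direction. Other members that carry a family or exception are named after their values were seen. Gpr52, Slc18a3, Pde2a and Ctgf were not matched, and a few genes that the rule names are not reported here. The steps were tested on simulated counts.

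Replicate numbers are shared by the regions but do not mark animals. Animal numbers came from the names of the deposited libraries. After removal of region means, libraries of the same animal correlated at 0.0797 to 0.238, and other pairs at −0.285 to 0.103, so the animal was set as a block in an alternative. All WT striatum libraries were sequenced on lane 5 and the WT hippocampus libraries on lanes 3, 4 and 5. The mutant striatum libraries were on lanes 3 and 4, and the mutant hippocampus libraries on lanes 3 and 5. Alternatives were DESeq2 1.42.0, its size factors, other filters and thresholds, both blocks, lane, 1 fit of all 18 libraries and leaving out libraries.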

Additional observations from a re-analysis of the deposited data

How the results depend on the processing

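The WT comparison called 4374 genes, and the count stayed within 1.5 times of this under DESeq2, its size factors, both filters, both blocks, and the fit of all 18 libraries with or without lane. It was 2593 (1188 higher in the striatum and 1405 higher in the hippocampus) in lane 5 only, where a lone hippocampus library is assumed to vary like the striatum libraries. At an adjusted p under 0.01 it was 2756 (1248 and 1508), and with striatum replicate 2 as the one striatum library, added after the data were seen, 2235 (1005 and 1230). The fit of all 18 libraries gave 3105 genes higher in the striatum against 1987. Leaving out 1 library gave 3179 to 4356 calls, and 1735 to 2223 at least 2-fold against 2004. In the mutants the 2-fold count ranged from 2323 to 2678 against 2575.

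The replicate block gave 3254 calls and 1822 at least 2-fold, although same-numbered libraries come from different animals and correlated at −0.285 to −0.172. With the animal as a block the counts were 4466 and 1990. The interaction was called for 0 genes, for 23 by DESeq2, for 16 with lane, for 0 with the replicate block and for 0 to 1 when 1 library was left out.

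Over the named genes and alternatives 3257 values kept direction and side of the threshold, 100 lost their call, 43 gained one and none reversed. Lane and region are partly confounded, so their parts cannot be told apart fully. With 3 libraries per region and low counts in the lower region, the size of the largest differences is poorly fixed.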

Other observations

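Of all genes tested 11.4% were called and at least 2-fold different. By annotated class this held for 68 of 405 long intergenic non-coding RNA genes (16.8%), 74 of 534 antisense genes (13.9%) and 1761 of 15422 protein-coding genes (11.4%), and the classes were not tested against each other. Antisense genes share positions with genes on the other strand, and without the strand setting their reads cannot be assigned with certainty.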
